A study of Mus musculus with 16 samples.

Results

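The sarcomere and Z-disc genes described here encode the filaments of the heart's contractile unit and the disc that anchors them. Of 33 genes chosen by name, 32 had a probe set whose annotation gives that gene alone, and where a gene had several, the one brightest on average was read. Xirp2 had none and is not analysed here. The 32 members are among 18193 genes measured that way in mouse ventricular myocardium. They comprise 6 genes of the thick filament, 3 of titin and the M-band, 9 of the thin filament, 11 of the Z-disc, and 3 that link the Z-disc to desmin, Xin repeats and the cell membrane.

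The hearts came from male mice aged 14 weeks on a CD1 background. They were either knockout mice that lack the adenosine 2A receptor (A2AR, a receptor for extracellular adenosine that raises cyclic AMP) or wild-type littermates, all from one breeding series. Each mouse received 1 intraperitoneal injection of E. coli lipopolysaccharide (LPS, bacterial endotoxin, 20 mg/kg) or the same volume of sterile saline, and the RNA was taken 24 h later. The 4 groups (saline and LPS in the wild-type, saline and LPS in the knockout) held 4 arrays each. The labels number the arrays 1 to 4 within a group, and p-values measure the spread between those samples, which may be technical. The labels name no deletion restricted to a tissue or cell type. Values are log2 probe set levels, changes are differences of log2 group means with limma's standard error, and a gene was called at an adjusted p under 0.05.

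In the sarcomere, bipolar myosin thick filaments slide along actin thin filaments when calcium binds troponin and moves tropomyosin off the myosin-binding sites. Titin spans from the Z-disc to the M-band and centres the thick filament, while the Z-disc cross-links the thin filaments of neighbouring sarcomeres through alpha-actinin and carries proteins that respond to stretch. Many of these genes are driven in cardiomyocytes by serum response factor, which binds the CArG box, by MEF2 factors and by TEAD factors, which bind the M-CAT motif.

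All 16 arrays had medians between 4.62 and 4.67, and the highest value of an array lay between 14.28 and 14.51. The label of heart muscle held in every array, since the cardiomyocyte markers Myh6, Tnnt2, Tnni3 and Actc1 read at or above 13.369 throughout. These markers are themselves members. Several members lie close to the top of the array's scale, and whether this limits the size of their changes was not tested. Skeletal muscle markers stood apart in wild-type saline arrays 1 and 4, where the mean of 13 markers was 6.64 and 8.29 against 4.69 to 4.88 in the other arrays. Wild-type LPS array 4 and knockout LPS array 2 received the lowest weights when limma estimated how far each array departs from its group, 0.22 and 0.29. Counts without these arrays are given beside the first result.

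The promoters of 28 of the 33 genes were found in the RefSeq promoter table (GRCm38.p6), as 40 windows that run from 250 bases before to 50 after an annotated start. A CArG box, which is CC and GG around 6 bases of A or T, was searched on both strands and stood in 9 of the 40 windows (22.5%), against 1.6% of all 32851 windows of the same length. The 9 windows belong to 7 genes, and no CArG box overlapped a match of another motif searched. The stretches below show each distinct box in capitals with the bases around it, ending before the start site, because members with and without it are compared later. Myom2, Lmod3, Tcap, Myot and Xirp1 had no entry in the table.

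The cardiac alpha-actin box begins 47 bases before the start, and the skeletal alpha-actin box 73 bases before it (chr2:114052876-114052977, minus strand and chr8:123894784-123894903, minus strand).
Actc1: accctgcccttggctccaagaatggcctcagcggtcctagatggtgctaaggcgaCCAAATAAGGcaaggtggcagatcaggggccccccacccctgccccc
Acta1: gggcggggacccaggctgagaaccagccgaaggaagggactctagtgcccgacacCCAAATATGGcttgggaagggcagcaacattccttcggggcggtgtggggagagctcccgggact

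Fhl2 has a box before each of 2 annotated starts, at 31 and 96 bases (chr1:43163962-43164047, minus strand and chr1:43196793-43196912, minus strand).
Fhl2 start 1: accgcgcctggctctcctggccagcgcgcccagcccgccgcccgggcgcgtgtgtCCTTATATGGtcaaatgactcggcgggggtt
Fhl2 start 2: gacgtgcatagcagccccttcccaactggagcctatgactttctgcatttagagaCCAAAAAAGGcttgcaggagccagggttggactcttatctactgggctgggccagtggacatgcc

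The other Z-disc genes with a box are Ldb3, 35 bases before a start, and Nebl, 162 bases before a start (chr14:34588682-34588771, minus strand and chr2:17462954-17463073, minus strand). The Ldb3 box lies in 2 overlapping windows, and both were counted above. Other annotated starts of Nebl have no box in their windows.
Ldb3: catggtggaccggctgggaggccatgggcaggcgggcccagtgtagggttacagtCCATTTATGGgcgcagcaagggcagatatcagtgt
Nebl: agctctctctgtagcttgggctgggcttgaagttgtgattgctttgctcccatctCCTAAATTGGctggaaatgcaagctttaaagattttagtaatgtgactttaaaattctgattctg

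The essential light chain gene Myl3 and the M-band gene Myom1 have a box 85 and 99 bases before the start (chr9:110763538-110763657, plus strand and chr17:71019403-71019522, plus strand).
Myl3: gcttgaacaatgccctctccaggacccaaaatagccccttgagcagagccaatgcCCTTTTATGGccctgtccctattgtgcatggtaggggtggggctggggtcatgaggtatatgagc
Myom1: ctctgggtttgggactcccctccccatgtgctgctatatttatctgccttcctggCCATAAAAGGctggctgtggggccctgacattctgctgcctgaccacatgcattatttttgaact

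The first question was how endotoxin changes these transcripts in hearts that have the receptor. In wild-type mice, 15 of the 32 members fell and 0 rose (46.9% lower), where 11.6% of all genes tested fell and 9.28% rose in limma's test. Xirp1 was the 1 member above 0 with an unadjusted p under 0.05. The median change of the members was -0.19 on the log2 scale, against -0.003 over all genes. The changes of 27 of 32 members lay below 0, and the groups did not overlap in 14 members that were lower and 1 that was higher, against 11.9% and 10.9% of all genes. In bulk tissue, fewer cardiomyocytes and less of each transcript per cell cannot be told apart. Without wild-type saline arrays 1 and 4 the count of lower members was 10, without wild-type LPS array 4 it was 19, and without wild-type LPS array 4 and knockout LPS array 2, an alternative chosen after seeing the data, it was 21 with 2 higher.

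In knockouts 14 members fell and 2 rose, where 14.7% of all genes fell and 11.4% rose. The median change was -0.20, against -0.02 over all genes, and 25 of 32 changes lay below 0. The groups did not overlap in 17 members that were lower and 2 that were higher, against 16.1% and 12.3% of all genes. Without wild-type LPS array 4 and knockout LPS array 2 there were 18 lower and 2 higher. The 2 comparisons share no arrays, but they share the estimate of each gene's spread, so their calls are not independent. The same 11 members fell in both: Myh7b, Mybpc3, Actc1, Tnni3, Tpm1, Tmod1, Lmod3, Ldb3, Nebl, Fhl2 and Smpx. They are 73.3% of the members that fell in wild-type and 78.6% of those in knockouts, while over all genes the shared falls were 79.4% and 62.7%.

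**Figure D1:**
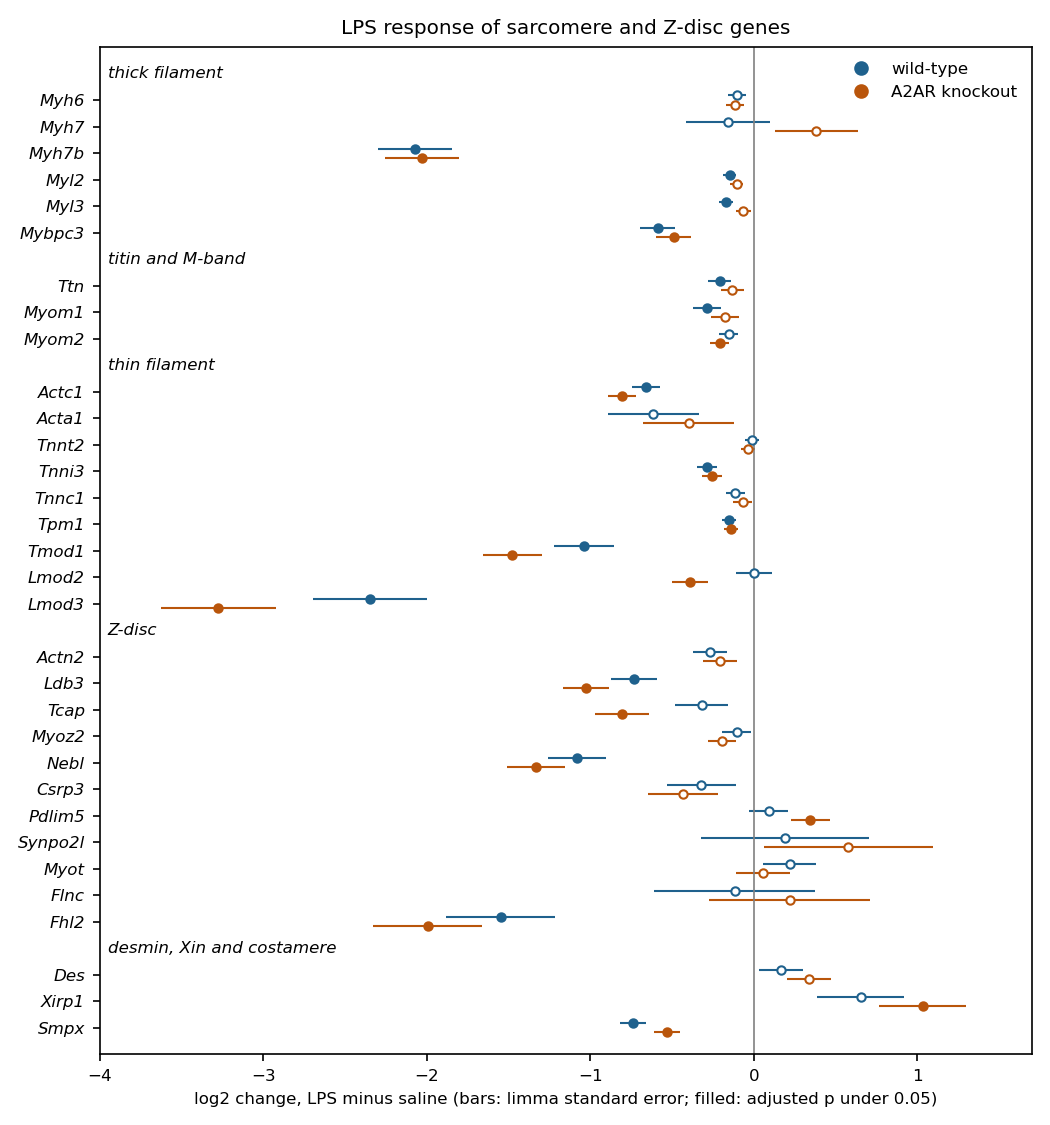
Log2 change after LPS of each of the 32 members (x axis; mean of 4 LPS arrays minus mean of 4 saline arrays, bars are limma standard errors) in wild-type (blue) and knockout (orange) hearts, grouped by role, with filled points for an adjusted p under 0.05. The lowest points are Lmod3 at -2.35 and -3.27, Myh7b at -2.07 and -2.03 and Fhl2 at -1.55 and -1.995, and the filled points above 0 are Pdlim5 and Xirp1 in knockouts.

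In the thick filament, 4 of 6 members fell in wild-type and 2 of 6 in knockouts, and none rose. Over all genes 11.6% fell and 9.28% rose in wild-type mice, and 14.7% fell and 11.4% rose in knockouts. Those shares are to be set beside the counts of each structure, and no structure was tested against them. The myosin gene Myh7b, a slow-type heavy chain whose gene hosts a microRNA, changed most. Myh7b read 7.58, 7.88, 8.03 and 7.71 in the wild-type saline arrays and 5.70, 5.52, 5.57 and 6.12 in the wild-type LPS arrays. It read 8.07, 7.26, 7.47 and 7.43 in the knockout saline arrays and 5.59, 6.23, 5.11 and 5.19 in the knockout LPS arrays. Every LPS array was below every saline array in both genotypes. The Myh7b level after LPS was 23.8% of saline in wild-type mice, a change of -2.07 ± 0.23 (adjusted p = 5.1e-06), and 24.5% in knockouts, -2.03 ± 0.23 (adjusted p = 5.56e-06).

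Mybpc3 encodes cardiac myosin-binding protein C, which tunes cross-bridge cycling. Mybpc3 read 13.12, 12.99, 13.18 and 13.09 in the wild-type saline arrays and 12.47, 12.19, 12.45 and 12.91 in the wild-type LPS arrays. In the knockout it read 13.11, 12.97, 13.13 and 13.001 in the knockout saline arrays and 12.47, 12.66, 12.55 and 12.57 in the knockout LPS arrays. The LPS and saline arrays did not overlap in either genotype, although wild-type LPS array 4 came closest to saline. Mybpc3 fell to 66.5% of saline in wild-type mice (-0.59 ± 0.11, adjusted p = 0.000811) and to 71.2% in knockouts (-0.49 ± 0.11, adjusted p = 0.00273).

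The ventricular light chains moved little. Myl2, the regulatory light chain, read 14.41, 14.48, 14.41 and 14.46 in the wild-type saline arrays and 14.26, 14.31, 14.36 and 14.24 in the wild-type LPS arrays, and Myl3, the essential light chain, read 14.26, 14.29, 14.33 and 14.31 in the wild-type saline arrays and 14.09, 14.09, 14.13 and 14.20 in the wild-type LPS arrays. The LPS arrays of both genes were all below the saline arrays. The falls were -0.15 ± 0.04 (adjusted p = 0.0132) for Myl2 and -0.17 ± 0.04 (adjusted p = 0.00978) for Myl3. In knockouts the changes were -0.10 ± 0.04 (adjusted p = 0.07) and -0.06 ± 0.04 (adjusted p = 0.327). When the values were quantile-normalized again the wild-type changes became -0.01 (adjusted p = 0.894) and -0.05 (adjusted p = 0.43). That step makes the highest values of all arrays nearly equal, so it cannot decide for genes that rank 2 and 4 in brightness. With arrays centred on their median the changes were -0.115 (adjusted p = 0.147) and -0.135 (adjusted p = 0.059), so both calls depend on the scaling. Without wild-type saline arrays 1 and 4 the adjusted p was 0.0921 for Myl2 and 0.0598 for Myl3. All 3 probe sets of Myl3 were called lower in wild-type mice, and none in knockouts.

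The main adult mouse heavy chain Myh6 (alpha-myosin) and the fetal and slow isoform Myh7 (beta-myosin) were not called with all arrays. Myh6 read 14.36, 14.35, 14.45 and 14.43 in the wild-type saline arrays and 14.21, 14.31, 14.22 and 14.45 in the wild-type LPS arrays, a change of -0.10 ± 0.06 (adjusted p = 0.238), or -0.15 (adjusted p = 0.0343) without wild-type LPS array 4. Its knockout change was -0.11 ± 0.06 (adjusted p = 0.152), or -0.54 (adjusted p = 0.0306) as the mean of its 2 probe sets and -0.13 (adjusted p = 0.0372) with array weights. Over 27 alternative settings the Myh6 change ran from -0.15 to -0.03 in wild-type mice and from -0.54 to 0 in knockouts. It was called in 3 of them in each genotype. Myh7 read 10.02, 10.44, 10.57 and 10.18 in the wild-type saline arrays and 9.76, 9.94, 10.08 and 10.81 in the wild-type LPS arrays. Its knockout values were 10.62, 10.05, 10.20 and 9.93 in the knockout saline arrays and 10.82, 11.27, 10.10 and 10.15 in the knockout LPS arrays. The Myh7 groups overlapped, with wild-type LPS array 4 and knockout LPS arrays 1 and 2 the highest, and the changes were -0.16 ± 0.26 (adjusted p = 0.749) and 0.38 ± 0.26 (adjusted p = 0.315). A second, dimmer probe set of Myh6 changed by -0.97 in knockouts (adjusted p = 0.0501, over all probe sets). In it knockout LPS array 2 read 8.93, against 9.85 to 10.76 in the other knockout LPS arrays, and it enters the mean given above. A further 2 probe sets are annotated to both Myh6 and Myh7 and were not used.

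The balance of the isoforms was read as the within-array difference of Myh7 minus Myh6. It was -4.34, -3.91, -3.88 and -4.26 in wild-type saline arrays and -4.45, -4.37, -4.14 and -3.64 after LPS. In knockout arrays it was -3.88, -4.33, -4.23 and -4.49 after saline and -3.45, -3.12, -4.17 and -4.22 after LPS. The groups overlapped in both genotypes. An exact two-sided permutation test over the arrays gave a shift of -0.06 in wild-type mice (p = 0.886, adjusted p = 0.886 over 4 tests) and 0.50 in knockouts (p = 0.171, adjusted p = 0.571), where 4 against 4 arrays allow no p below 0.0286.

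Of titin and the M-band, 2 of 3 members fell in wild-type and 1 of 3 in knockouts (11.6% and 14.7% of all genes). Titin (Ttn), the giant elastic filament, read 13.75, 13.77, 13.86 and 13.78 in the wild-type saline arrays and 13.63, 13.55, 13.66 and 13.47 in the wild-type LPS arrays. In the knockout, Ttn read 13.86, 13.76, 13.63 and 13.78 in the knockout saline arrays and 13.52, 13.83, 13.57 and 13.57 in the knockout LPS arrays. The wild-type groups did not overlap, whereas knockout LPS array 2 lay among the saline arrays. Ttn changed by -0.21 ± 0.07 (adjusted p = 0.043) in wild-type mice, a call that 14 of the alternative settings lose, and by -0.13 ± 0.07 (adjusted p = 0.193) in knockouts, or -0.20 (adjusted p = 0.0236) without knockout LPS array 2. Ttn has 6 probe sets here, of which 5 were called lower in wild-type and 2 in knockouts, and their mean changed by -0.67 and -0.39 (adjusted p = 0.0337 in knockouts).

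Myomesin 1 (Myom1) and myomesin 2 (Myom2) cross-link thick filaments at the M-band. Myom1 read 12.29, 12.16, 12.37 and 12.20 in the wild-type saline arrays and from 11.77 to 12.23 in the wild-type LPS arrays, with LPS array 4 inside the saline range. It fell by 0.29 ± 0.09 (log2) in wild-type mice (adjusted p = 0.0241), a call that ended when LPS array 2 or 3 or saline array 1 or 3 of the wild-type was left out (adjusted p = 0.0911, 0.0802, 0.0613 and 0.0806). The knockout change of Myom1 was -0.18 ± 0.09 (adjusted p = 0.145). Myom2 read 13.50, 13.47, 13.54 and 13.54 in the knockout saline arrays and 13.30, 13.34, 13.24 and 13.34 in the knockout LPS arrays, without overlap, and fell by 0.21 ± 0.06 (adjusted p = 0.0126). Its wild-type change was -0.15 ± 0.06 (adjusted p = 0.0702), or -0.17 (adjusted p = 0.0478) without wild-type LPS array 4. Of the 4 probe sets of Myom2, 2 were called lower in wild-type and 3 in knockouts when all probe sets were tested. The mean of the 4 changed by -0.21 in knockouts (adjusted p = 0.0575). The knockout call of Myom2 was also lost with arrays centred on their median (-0.158, adjusted p = 0.0862) and when the values were quantile-normalized again (-0.148, adjusted p = 0.0853).

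The thin filament held the member with the largest fall, Lmod3. Here 5 of 9 members were lower in wild-type and 6 of 9 in knockouts (11.6% and 14.7% of all genes), and none was higher. The medians of the 9 changes were -0.29 and -0.39. Lmod3 and Tmod1, which act at the filament's pointed end, had the largest changes of the 9 in both genotypes, whereas the leiomodin Lmod2 was not called in wild-type mice.

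Lmod3 encodes leiomodin 3, an actin nucleator of the pointed end. Lmod3 read 9.91, 9.64, 9.32 and 9.55 in the wild-type saline arrays and 6.88, 7.08, 6.75 and 8.35 in the wild-type LPS arrays. It read 9.66, 10.03, 9.996 and 9.81 in the knockout saline arrays and 6.49, 5.56, 6.83 and 7.52 in the knockout LPS arrays. No LPS array reached the saline range, and among the LPS arrays wild-type array 4 was the highest and knockout array 2 the lowest. Lmod3 fell to 19.7% of saline in wild-type mice (-2.35 ± 0.35, adjusted p = 0.000124) and to 10.3% in knockouts (-3.27 ± 0.35, adjusted p = 3.57e-06). The difference between these responses was -0.93 ± 0.49 (95% interval -1.97 to 0.12, adjusted p = 0.959), and without those 2 arrays it was -0.22.

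Tropomodulin 1 (Tmod1) caps the same end. Tmod1 read 11.23, 11.23, 11.03 and 11.24 in the wild-type saline arrays and 10.07, 9.82, 9.85 and 10.84 in the wild-type LPS arrays. It read 11.25, 11.36, 11.30 and 11.38 in the knockout saline arrays and 9.65, 9.63, 9.86 and 10.24 in the knockout LPS arrays. The groups did not overlap, and wild-type LPS array 4 was again nearest to saline. Tmod1 fell to 48.7% of saline (-1.04 ± 0.18, adjusted p = 0.000527) in wild-type and to 35.9% (-1.48 ± 0.18, adjusted p = 1.52e-05) in knockouts.

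Leiomodin 2 (Lmod2), the cardiac leiomodin that lengthens thin filaments, read 12.15, 12.18, 11.87 and 11.70 in the wild-type saline arrays and from 11.90 to 12.05 in the wild-type LPS arrays, with the LPS arrays inside the saline range. In the knockout, Lmod2 read 12.09, 12.12, 12.10 and 12.10 in the knockout saline arrays and 11.77, 11.39, 11.88 and 11.82 in the knockout LPS arrays, with every LPS array below saline. The change was -0.001 ± 0.11 (adjusted p = 0.996) in wild-type and -0.39 ± 0.11 (adjusted p = 0.0146) in knockouts. The difference of these responses was -0.39 ± 0.16 (95% interval -0.72 to -0.06) and did not pass after adjustment (adjusted p = 0.959).

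Cardiac alpha-actin (Actc1) is the main actin of the adult heart, and skeletal alpha-actin (Acta1) is its fetal partner. Actc1 read 14.26, 14.31, 14.22 and 14.29 in the wild-type saline arrays and 13.48, 13.37, 13.78 and 13.82 in the wild-type LPS arrays. It read 14.28, 14.34, 14.30 and 14.26 in the knockout saline arrays and 13.60, 13.37, 13.57 and 13.40 in the knockout LPS arrays. All 8 LPS arrays were below all 8 saline arrays. Actc1 fell to 63.3% of saline in wild-type mice (-0.66 ± 0.09, adjusted p = 3.2e-05) and to 57.1% in knockouts (-0.81 ± 0.09, adjusted p = 3.26e-06).

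Acta1 read 12.997, 13.07, 12.26 and 13.08 in the wild-type saline arrays and 12.29, 11.52, 12.42 and 12.74 in the wild-type LPS arrays, and the groups overlapped through saline array 3, which lay below LPS arrays 1, 3 and 4. Its change was -0.61 ± 0.28 (adjusted p = 0.141) in wild-type mice, or -0.78 (adjusted p = 0.0419) without wild-type LPS array 4 and knockout LPS array 2, and -0.40 ± 0.28 (adjusted p = 0.341) in knockouts. Over 27 alternative settings the wild-type change ran from -0.82 to -0.37 and was called in 2. Wild-type saline arrays 1 and 4, where skeletal muscle markers were high, enter this change, and the part of those markers in it was not tested. The within-array difference of Acta1 minus Actc1 ranged from -1.96 to -1.21 after saline and from -1.85 to -1.09 after LPS in wild-type arrays, and from -2.85 to -2.24 and from -2.69 to -1.62 in knockout arrays. Its shift after LPS was 0.04 in wild-type mice (exact permutation p = 0.714, adjusted p = 0.886) and 0.41 in knockouts (p = 0.286, adjusted p = 0.571).

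The calcium switch was uneven. Troponin I (Tnni3), the inhibitory subunit, read 13.93, 13.89, 14.01 and 13.93 in the wild-type saline arrays and 13.64, 13.54, 13.59 and 13.84 in the wild-type LPS arrays. It read 13.99, 13.88, 13.93 and 13.94 in the knockout saline arrays and 13.59, 13.72, 13.67 and 13.73 in the knockout LPS arrays. The groups did not overlap, and Tnni3 fell to 82% of saline (-0.29 ± 0.06, adjusted p = 0.00281) and to 83.7% (-0.26 ± 0.06, adjusted p = 0.00507). Troponin T (Tnnt2), which binds tropomyosin, read between 13.98 and 14.12 in all 16 arrays, with changes of -0.01 ± 0.04 (adjusted p = 0.909) and -0.04 ± 0.04 (adjusted p = 0.614). Troponin C (Tnnc1), the calcium sensor, changed by -0.11 ± 0.06 (adjusted p = 0.196) and -0.07 ± 0.06 (adjusted p = 0.45), and by -0.17 (adjusted p = 0.0148) in wild-type mice without wild-type LPS array 4. For the brightest Tnnt2 probe set the 95% interval of the change was -0.10 to 0.08 in wild-type and -0.13 to 0.06 in knockouts. None of the 3 Tnnt2 probe sets was called, but their signs differed in both genotypes. The dimmest changed by -0.72 ± 0.38 in wild-type mice (adjusted p = 0.237, over all probe sets), where wild-type LPS array 4 read 8.82.

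Alpha-tropomyosin (Tpm1) covers the myosin-binding sites of actin. Tpm1 read 13.98, 13.98, 13.998 and 14.05 in the wild-type saline arrays and 13.84, 13.83, 13.87 and 13.85 in the wild-type LPS arrays, without overlap, and fell by 0.15 ± 0.04 on the log2 scale (adjusted p = 0.0138). In the knockout it read 13.94, 13.96, 13.98 and 13.98 in the knockout saline arrays and 13.87, 13.78, 13.78 and 13.87 in the knockout LPS arrays and fell by 0.14 ± 0.04 (adjusted p = 0.0227). Both calls were lost with arrays centred on their median (-0.121, adjusted p = 0.094, and -0.087, adjusted p = 0.214). They were also lost when the values were quantile-normalized again (-0.10, adjusted p = 0.123, and -0.07, adjusted p = 0.312), a step that holds the brightest genes nearly equal between arrays. The 4 probe sets of Tpm1 disagreed in knockouts, from -0.63 to 0.47, and their mean changed by -0.67 in wild-type and -0.12 in knockouts.

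**Figure D2:**
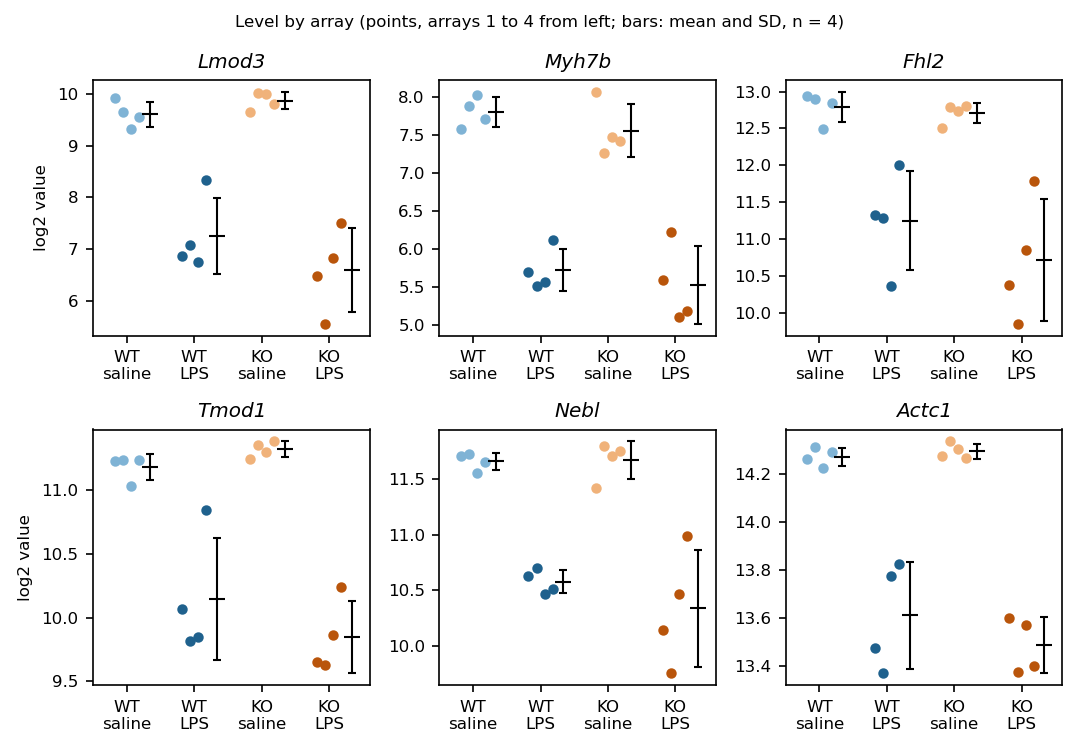
Log2 level (y axis) of 6 members that fell in both genotypes, by group, with 1 point per array and the mean with SD over n = 4 at the right of each group. In each panel every LPS point lies below every saline point of its genotype, and wild-type LPS array 4 is the highest of its group for Lmod3 (8.35), Tmod1 (10.84), Fhl2 (12.003), Myh7b (6.12) and Actc1 (13.82) but not for Nebl (10.52).

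At the Z-disc, 3 of 11 members fell in wild-type mice (11.6% of all genes), 4 fell in knockouts (14.7%) and 1 rose there (11.4%). The medians of their changes were -0.27 and -0.21. Fhl2, Nebl and Ldb3 fell in both genotypes.

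Fhl2 is a LIM-domain protein that binds titin and acts as a transcriptional cofactor. Fhl2 read 12.95, 12.89, 12.49 and 12.85 in the wild-type saline arrays and 11.33, 11.29, 10.37 and 12.003 in the wild-type LPS arrays. It read 12.51, 12.79, 12.74 and 12.80 in the knockout saline arrays and 10.37, 9.85, 10.86 and 11.79 in the knockout LPS arrays. The groups did not overlap, and the lowest LPS values were those of wild-type array 3 and knockout array 2. Fhl2 fell to 34.2% of saline in wild-type mice (-1.55 ± 0.33, adjusted p = 0.00273) and to 25.1% in knockouts (-1.995 ± 0.33, adjusted p = 0.000275).

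Nebulette (Nebl), the cardiac relative of nebulin, ties thin filaments to the Z-disc. Nebl read 11.71, 11.72, 11.55 and 11.65 in the wild-type saline arrays and 10.63, 10.70, 10.47 and 10.52 in the wild-type LPS arrays. It read 11.42, 11.80, 11.71 and 11.76 in the knockout saline arrays and 10.14, 9.76, 10.47 and 10.99 in the knockout LPS arrays. The wild-type LPS arrays lay close together and the knockout LPS arrays spread wider, and neither group reached saline. Nebl fell to 47.3% (-1.08 ± 0.18, adjusted p = 0.000333) and 39.7% (-1.33 ± 0.18, adjusted p = 4.02e-05) of saline. Of its 3 probe sets, 2 were called lower in wild-type and 3 in knockouts.

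Ldb3 encodes cypher (ZASP), a PDZ-LIM protein that binds alpha-actinin. Ldb3 read 12.12, 11.96, 12.12 and 12.10 in the wild-type saline arrays and 11.22, 11.37, 11.10 and 11.68 in the wild-type LPS arrays. It read 11.998, 12.05, 12.19 and 11.92 in the knockout saline arrays and 10.99, 10.59, 11.09 and 11.38 in the knockout LPS arrays. There was no overlap in either genotype. Ldb3 fell by 0.73 ± 0.14 (log2) in wild-type mice (adjusted p = 0.00113) and by 1.03 ± 0.14 in knockouts (adjusted p = 4.64e-05). The mean of its 3 probe sets changed by -0.50 in knockouts.

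Telethonin (Tcap) caps the titin ends at the Z-disc. Tcap read 13.05, 12.96, 12.61 and 12.62 in the wild-type saline arrays and 12.48, 12.11, 12.38 and 12.997 in the wild-type LPS arrays, where LPS array 4 reached the saline range. It read 12.89, 12.91, 13.11 and 12.97 in the knockout saline arrays and 11.92, 11.95, 12.36 and 12.42 in the knockout LPS arrays, where all LPS arrays were below saline. Its change was -0.32 ± 0.16 (adjusted p = 0.198) in wild-type mice, or -0.49 (adjusted p = 0.0148) without wild-type LPS array 4, and -0.81 ± 0.16 (adjusted p = 0.00138) in knockouts. The difference of the responses was -0.49 ± 0.23 (95% interval -0.97 to -0.002, adjusted p = 0.959).

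The backbone of the disc was not called. Alpha-actinin 2 (Actn2), the thin filament cross-linker, read 13.05, 12.98, 12.99 and 13.01 in the wild-type saline arrays and 12.62, 12.49, 12.77 and 13.07 in the wild-type LPS arrays, so that 3 LPS arrays lay below saline and array 4 above it. Actn2 changed by -0.27 ± 0.10 (adjusted p = 0.0757) in wild-type mice, or -0.38 (adjusted p = 0.00241) without that array, and by -0.21 ± 0.10 (adjusted p = 0.164) in knockouts. Myoz2 (calsarcin 1, a calcineurin-binding protein) changed by -0.11 ± 0.09 (adjusted p = 0.463) and -0.20 ± 0.09 (adjusted p = 0.112), or -0.26 (adjusted p = 0.0303) in knockouts without knockout LPS array 4. Its wild-type LPS values were 12.94, 12.94, 12.95 and 13.21, with array 4 above the 4 saline arrays.

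Pdlim5 encodes another PDZ-LIM protein of the disc, known for tethering protein kinases. Pdlim5 read 12.62, 12.55, 12.65 and 12.58 in the wild-type saline arrays and 12.95, 12.89, 12.77 and 12.16 in the wild-type LPS arrays: 3 LPS arrays were above saline and array 4 below it. It read 12.59, 12.58, 12.52 and 12.59 in the knockout saline arrays and 12.96, 12.91, 12.91 and 12.88 in the knockout LPS arrays, with all LPS arrays above saline. Pdlim5 rose by 0.35 ± 0.12 in knockouts (adjusted p = 0.0401) and changed by 0.09 ± 0.12 (adjusted p = 0.676) in wild-type mice, or 0.27 (adjusted p = 0.0018) without wild-type LPS array 4. The knockout call is lost in 13 of the alternative settings, among them the loss of any 1 knockout array, with adjusted p between 0.0533 and 0.0911. The gene has 7 probe sets here, all with changes above 0, of which 2 were called higher in wild-type (0.09 to 0.99 over the 7) and 6 in knockouts (0.35 to 2.21). The mean of the 7 rose by 0.70 in wild-type (adjusted p = 0.0465) and by 1.26 in knockouts.

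Among the 32 members, the Z-disc genes Synpo2l and Flnc had the largest SD over the LPS arrays in both genotypes, 0.86 and 0.94 in wild-type and 1.46 and 1.30 in knockouts. Synpo2l, an actin-binding protein of the disc, read 10.74, 10.45, 10.60 and 10.46 in the wild-type saline arrays and 10.38, 10.30, 12.03 and 10.29 in the wild-type LPS arrays. It read 10.68, 10.63, 10.69 and 10.58 in the knockout saline arrays and 11.89, 12.91, 10.48 and 9.61 in the knockout LPS arrays. Wild-type LPS array 3 and knockout LPS arrays 1 and 2 were above every saline array, and the other 5 LPS arrays were below the highest saline array. Flnc encodes filamin C, which cross-links actin and marks stretched or damaged discs. Flnc read 9.66, 9.46, 9.52 and 9.54 in the wild-type saline arrays and 8.96, 8.53, 10.70 and 9.54 in the wild-type LPS arrays. It read 9.57, 9.54, 9.73 and 9.28 in the knockout saline arrays and 10.11, 11.44, 8.79 and 8.65 in the knockout LPS arrays. The same 3 LPS arrays were the ones above all saline arrays. The changes were 0.19 ± 0.52 (adjusted p = 0.857) and 0.58 ± 0.52 (adjusted p = 0.469) for Synpo2l and -0.12 ± 0.49 (adjusted p = 0.913) and 0.22 ± 0.49 (adjusted p = 0.803) for Flnc, and the pattern over arrays was noticed after the values were seen.

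Both probe sets of Flnc and 3 of the 4 of Synpo2l put those 3 LPS arrays highest. The second Flnc probe set read 8.51, 8.14, 10.29 and 9.04 in the wild-type LPS arrays and 9.64, 10.92, 8.09 and 8.14 in the knockout LPS arrays. Csrp3 (muscle LIM protein), a stretch-linked LIM protein, read 13.50, 13.43, 13.44 and 13.47 in the wild-type saline arrays and 12.62, 12.88, 13.57 and 13.49 in the wild-type LPS arrays. It read 13.35, 13.48, 13.54 and 13.45 in the knockout saline arrays and 13.30, 13.61, 12.59 and 12.59 in the knockout LPS arrays. Wild-type LPS arrays 3 and 4 and knockout LPS array 2 were at or just above the saline level and the others below it. The changes of Csrp3 were -0.32 ± 0.21 (adjusted p = 0.348) and -0.43 ± 0.21 (adjusted p = 0.156), or -0.63 (adjusted p = 0.029) in knockouts without knockout LPS array 2. Myotilin (Myot), an actin bundler of the disc, changed by 0.22 ± 0.16 (adjusted p = 0.413) and 0.06 ± 0.16 (adjusted p = 0.85).

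**Figure D3:**
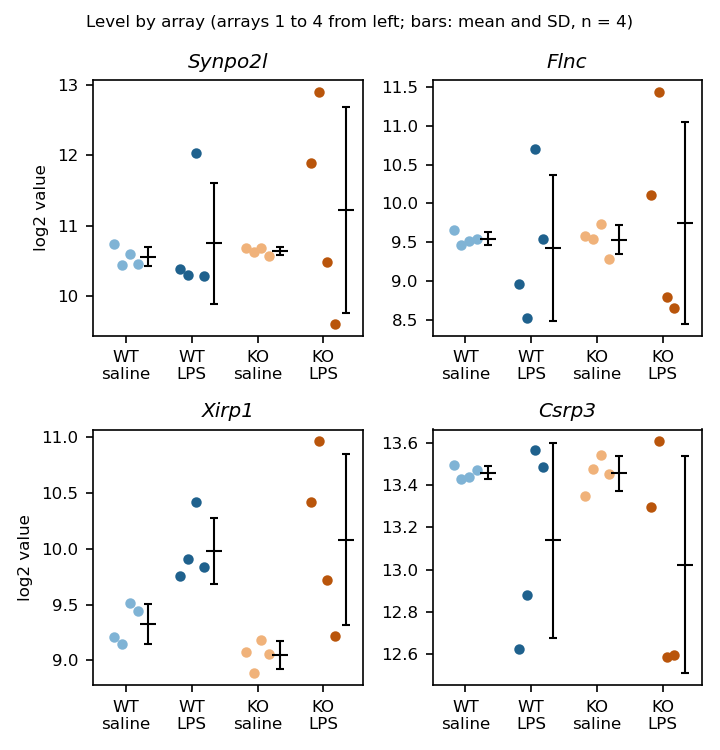
Log2 level (y axis) of Synpo2l, Flnc, Xirp1 and Csrp3 by group, with 1 point per array (arrays 1 to 4 from left) and the mean with SD over n = 4. Saline arrays lie close together, whereas after LPS the SD reached 1.46 for Synpo2l in knockout and 0.94 for Flnc in wild-type mice, with wild-type array 3 and knockout arrays 1 and 2 high in Synpo2l, Flnc and Xirp1.

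Across the 32 members the median SD over 4 arrays was 0.08 in both saline groups, 0.24 in the wild-type LPS group and 0.20 in the knockout LPS group. Measured against the saline mean of its genotype, the median member lay at -0.28, -0.38, -0.17 and -0.10 in wild-type LPS arrays 1 to 4 and at -0.18, -0.18, -0.24 and -0.24 in knockout LPS arrays 1 to 4. The 11 members that fell in both had array medians from -0.98 to -0.45 and from -1.33 to -0.68. They were picked as lower in these same arrays, so low medians follow from the choice. By the median member, wild-type LPS array 4 was thus the LPS array closest to saline, with 20 of 32 members below the saline mean against 24 to 29 in the other LPS arrays. It did not resemble saline throughout. A dimmer probe set each of Ttn, Tnnt2 and Tpm1 was lowest of all arrays there, at 8.675, 8.82 and 6.72. Other Ttn probe sets made it the highest of its group (13.11 and 8.82). Its macrophage markers had a summed level (log2) of 12.305, above the wild-type saline range of 11.32 to 11.525, while wild-type LPS arrays 1 to 3 lay below that range. Why this array differs was not tested. The 14 members whose wild-type saline mean was at or above 13 changed by -0.66 to -0.01 in wild-type mice, and the 18 below 13 by -2.35 to 0.65.

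Of the genes that link the disc outward, Smpx fell and Xirp1 rose. Smpx, a small protein of the costamere (the attachment of the disc to the cell membrane), read 12.51, 12.45, 12.50 and 12.51 in the wild-type saline arrays and 11.77, 11.62, 11.85 and 11.79 in the wild-type LPS arrays. It read 12.39, 12.56, 12.57 and 12.47 in the knockout saline arrays and 11.99, 12.12, 11.74 and 12.02 in the knockout LPS arrays. The groups did not overlap. Smpx fell to 59.9% of saline in wild-type (-0.74 ± 0.08, adjusted p = 5.1e-06) and to 69.3% in knockouts (-0.53 ± 0.08, adjusted p = 0.000121).

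Xirp1 encodes Xin, an actin-binding repeat protein of intercalated discs. Xirp1 read 9.21, 9.14, 9.52 and 9.45 in the wild-type saline arrays and 9.76, 9.91, 10.42 and 9.84 in the wild-type LPS arrays. It read 9.08, 8.88, 9.19 and 9.06 in the knockout saline arrays and 10.42, 10.97, 9.72 and 9.22 in the knockout LPS arrays. All LPS arrays were above all saline arrays of their genotype, and in the knockout arrays 1 and 2 were the highest. Xirp1 rose to 204% of saline in knockouts (1.03 ± 0.27, adjusted p = 0.00794), and in wild-type mice its change was 0.65 ± 0.27 (adjusted p = 0.0973), called without knockout LPS array 2 or 4 (adjusted p = 0.0255 and 0.0324). Leaving out those knockout arrays left the wild-type change at 0.65 and lowered only its standard error, to 0.2 and 0.21, because the groups share the estimate of spread. Desmin (Des), the intermediate filament around the disc, read 11.80, 11.67, 11.76 and 11.74 in the wild-type saline arrays and 11.70, 11.68, 11.97 and 12.29 in the wild-type LPS arrays, and its changes of 0.17 ± 0.14 (adjusted p = 0.463) and 0.34 ± 0.14 (adjusted p = 0.0784) were not called. The knockout change of Des was 0.43 (adjusted p = 0.0337) without knockout LPS array 3, 0.34 (adjusted p = 0.0312) without wild-type LPS array 4 and 0.39 (adjusted p = 0.0475) with arrays centred on their median. Without wild-type LPS array 4 the change itself was the same, and only its standard error was lower (0.11). The knockout change was 0.21 (adjusted p = 0.245) without knockout LPS array 2 and 0.70 (adjusted p = 0.019) as the mean of both probe sets. A second Des probe set, near the array median, rose by 1.06 in knockouts (adjusted p = 0.0179, over all probe sets).

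The next question was whether loss of the receptor changed these transcripts. After saline 0 of 32 members were called by limma between knockout and wild-type mice, against 1 of all genes (0.0055%), and 2 had an unadjusted p under 0.05 (3.48% of all genes). After LPS 0 were called, again against 1 gene (0.0055%), and 5 had an unadjusted p under 0.05 (7.56% of all genes). For the difference of the LPS responses 0 members and 0 genes were called (0%), and Lmod2 and Tcap had an unadjusted p under 0.05 (4.47% of all genes). The genotype comparisons use the same arrays as the LPS comparisons. With array weights, 1 member was called after saline, Acta1.

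The groups did not overlap after saline in 1 member that was lower in knockouts (Acta1) and 1 that was higher (Tmod1), against 2.08% and 1.81% of all genes, and after LPS in 2 that were lower (Lmod2 and Myot) and 0 that were higher, against 1.18% and 1.08%.

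Among the members, Acta1 had the largest genotype difference after either treatment. Acta1 read 12.04, 11.91, 11.75 and 11.41 in the knockout saline arrays and 11.98, 11.72, 11.12 and 10.71 in the knockout LPS arrays, to be set against the wild-type values above. Every knockout saline array was below every wild-type saline array, and the LPS groups overlapped through wild-type LPS array 2. The difference was -1.07 ± 0.28 (adjusted p = 0.786) after saline (95% interval -1.66 to -0.49) and -0.86 ± 0.28 (adjusted p = 0.622) after LPS. With array weights the saline value was -1.16 (adjusted p = 0.0393). Acta1 is also a skeletal muscle gene, and the skeletal markers were high in wild-type saline arrays 1 and 4. Without those arrays the saline difference was -0.89 ± 0.35 (adjusted p = 1). In the other two wild-type saline arrays the markers averaged 4.87 (array 2) and 4.81 (array 3), and Acta1 read 13.07 and 12.26. The part of the skeletal markers in the Acta1 difference was not tested.

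Myot read 9.73, 9.75, 9.42 and 9.80 in the wild-type saline arrays and 10.05, 9.96, 9.69 and 9.87 in the wild-type LPS arrays. It read 9.24, 9.59, 9.53 and 8.77 in the knockout saline arrays and 9.23, 9.10, 9.61 and 9.41 in the knockout LPS arrays. After LPS every knockout array was below every wild-type array, and after saline knockout arrays 2 and 3 overlapped wild-type array 3. The difference was -0.39 ± 0.16 (adjusted p = 1) after saline and -0.56 ± 0.16 (adjusted p = 0.594) after LPS (95% interval -0.90 to -0.21). The other unadjusted differences after LPS were -0.26 ± 0.11 for Lmod2, -0.33 ± 0.14 for Ldb3 and 0.21 ± 0.08 for Smpx, all with adjusted p of at least 0.655.

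**Figure D4:**
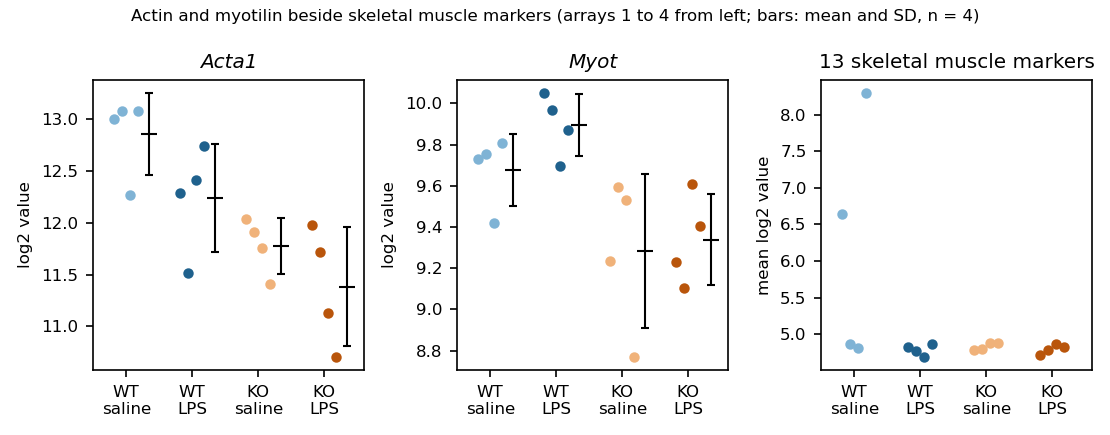
Log2 level (y axis) of Acta1 and Myot and the mean log2 level of 13 skeletal muscle markers, by group, with 1 point per array (arrays 1 to 4 from left; for the 2 genes also the mean with SD, n = 4). Acta1 lies lower in all knockout saline arrays (11.41 to 12.04) than in the wild-type saline arrays (12.26 to 13.08), and the markers are high in wild-type saline arrays 1 and 4 alone.

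Further genes of the same structures were read from lists chosen with earlier results known. Over all genes 11.6% fell and 9.28% rose in wild-type mice, and 14.7% fell and 11.4% rose in knockouts. Those shares are to be set beside every count of called genes in the lists below, and no list was tested against them. Of 23 other structural genes of the sarcomere, 9 fell and 2 rose in wild-type mice and 7 fell and 4 rose in knockouts. Mybphl, a myosin-binding protein related to Mybpc3, fell by 1.64 ± 0.26 (log2, adjusted p = 0.00019) with the receptor, and its change without it was -2.35 ± 0.26 (adjusted p = 4.43e-06). The tropomyosins parted, with Tpm2 (beta-tropomyosin) lower by -1.24 ± 0.25 (adjusted p = 0.00154) and -0.99 ± 0.25 (adjusted p = 0.00679) and Tpm3 higher by 1.06 ± 0.18 (adjusted p = 0.000421) and 1.36 ± 0.18 (adjusted p = 3.34e-05). Actn1, the non-muscle relative of Actn2, changed by 0.72 ± 0.28 in wild-type (adjusted p = 0.0896) and rose by 1.27 ± 0.28 in knockouts (adjusted p = 0.00316).

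Of 21 genes of sarcomere assembly and turnover, 4 fell and 5 rose in wild-type mice and 5 fell and 6 rose in knockouts. Ankrd2, a stretch-linked ankyrin-repeat partner of titin, rose by 3.27 ± 0.63 (adjusted p = 0.00113) and 3.13 ± 0.63 (adjusted p = 0.0013). Its relative Ankrd1 rose by 1.08 ± 0.16 (adjusted p = 9.26e-05) and 0.57 ± 0.16 (adjusted p = 0.0124). Fbxo32 (atrogin-1), a ubiquitin ligase of muscle protein breakdown, rose by 1.20 ± 0.26 and 1.17 ± 0.26 (adjusted p = 0.00295 and 0.00303). Smyd1, a methyltransferase needed to fold and assemble myosin, changed by -1.08 ± 0.26 and -1.15 ± 0.26 (adjusted p = 0.00682 and 0.00367).

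Of 18 membrane-linked cytoskeleton genes, 8 fell and 3 rose in wild-type mice and 8 fell and 2 rose in knockouts. Synemin (Synm), a partner of desmin, changed by -2.46 ± 0.30 (adjusted p = 2.07e-05) and -2.06 ± 0.30 (adjusted p = 9.76e-05). The sarcoglycan Sgca and the integrin partner Itgb1bp2 (melusin) also fell in both genotypes, and the laminin-binding integrin Itga7 rose in both, by 0.74 ± 0.13 and 1.18 ± 0.13.

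Of 12 transcription factors of sarcomere genes, 7 fell in wild-type and 6 in knockouts and 0 rose in either. Over all genes 11.6% and 14.7% fell and 9.28% and 11.4% rose. Mef2c changed by -1.41 ± 0.21 (adjusted p = 0.000152) and -0.90 ± 0.21 (adjusted p = 0.00485), Gata4 by -0.93 ± 0.22 (adjusted p = 0.00654) and -1.24 ± 0.22 (adjusted p = 0.000558), and Mef2a by -0.66 ± 0.11 (adjusted p = 0.000275) and -0.71 ± 0.11 (adjusted p = 0.000114). Myocardin (Myocd), a cofactor of serum response factor, changed by -1.55 ± 0.39 in wild-type (adjusted p = 0.00757) and -0.38 ± 0.39 in knockouts (adjusted p = 0.539), and the difference of these responses was not called (1.18, adjusted p = 0.959). Srf itself, named after its values were seen, changed by -0.64 ± 0.14 (adjusted p = 0.00279) and -0.34 ± 0.14 (adjusted p = 0.0808).

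Against the promoter stretches printed above, a CArG box stood in 4 of 10 matched members that fell in both genotypes (Actc1, Fhl2, Ldb3 and Nebl), in 2 of 5 that fell in 1 genotype (Myl3 and Myom1), in 1 of 11 not called (Acta1) and in 0 of the 1 that rose. A MEF2 box stood in 17.5% of the member windows and 3.2% of all windows, and the M-CAT motif CATTCC in 30.0% and 14.7%. The TATA motif TATAAA stood in 6 of the 40 member windows and 13.6% of all windows, and the E-box CANNTG in 80.0% and 72.3%. Split in the same way (fell in both, fell in 1, not called), the MEF2 box stood in 2 of 10, 1 of 5 and 2 of 11 members. The M-CAT motif stood in 3 of 10, 2 of 5 and 6 of 11, and the TATA motif in 2 of 10, 1 of 5 and 2 of 11. The E-box stood in 7 of 10, 5 of 5 and 10 of 11. All motifs were searched on both strands. These matches describe letters in the windows, and the counts by response were not tested.

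Markers of other cells moved in the same comparisons, and their part in the members' changes was not tested. Beside the counts below, 11.6% of all genes fell and 9.28% rose in wild-type mice, and 14.7% fell and 11.4% rose in knockouts. Of 8 cardiomyocyte genes outside the sarcomere, 3 fell in wild-type and 6 in knockouts, and the log2 of their summed level was 16.43 to 16.51 after saline and 16.25 to 16.40 after LPS in wild-type arrays, and 16.45 to 16.56 and 16.04 to 16.41 in knockout arrays. Casq2, the calcium store protein, changed most among them in wild-type mice (-1.13 ± 0.08, adjusted p = 2.53e-08). All 6 smooth muscle markers fell in both genotypes (summed level 11.96 to 12.31 and 10.24 to 10.996 in wild-type, 11.69 to 12.13 and 10.49 to 11.08 in knockout arrays), and 4 of 5 atrial markers fell in both (14.93 to 15.41 and 14.56 to 15.02, and 15.30 to 15.45 and 14.59 to 14.95).

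Neutrophil markers were higher in both genotypes for 4 of 6 genes (summed level 6.52 to 6.70 and 9.64 to 10.63 in wild-type, 6.68 to 6.81 and 10.49 to 11.10 in knockout arrays). Of 7 macrophage markers 2 were lower and 2 higher in wild-type mice, against 3 and 2 in knockouts, of 7 fibroblast markers 2 fell in each, and of 7 endothelial markers 2 and 3 fell. These lists are short, and whether their counts differ from the shares over all genes was not tested. All 3 adipocyte markers fell in wild-type and 2 in knockouts. Of the 13 skeletal muscle markers 2 fell in wild-type and 1 rose in knockouts, and their summed level was 11.52 to 13.38 after saline and 10.87 to 11.15 after LPS in wild-type arrays.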

How the data were processed

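Total RNA from 16 ventricular samples was extracted with Trizol and RNeasy columns and hybridised as biotinylated cRNA to 1 Affymetrix array each. The deposited log2 values were made by the authors with RMA, per the submitters' processing notes; no version of it is given there. Of 45101 probe sets, 34945 carry 1 gene symbol, and the brightest per gene was used. The 4 group means were estimated from the 16 arrays in one limma fit (version 3.58.1, R 4.3.3, variance trend with intensity), with Benjamini-Hochberg adjustment over 18193 genes and two-sided tests. Isoform balance used exact permutation. Every member could be named, of each pathway list up to 4 called genes with the largest change, and of each marker list up to 3. The members and lists were chosen with earlier results of these data known. Alternatives were the probe set rule, scaling, variance trend, array weights, gene filter, replicate block and leaving arrays out. The receptor's transcript level is not reported here, so genotypes rest on the labels. Precision is limited by the number of arrays. The fit was tested on simulated data.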

Additional observations from a re-analysis of the deposited data

Results flagged for a closer look

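In 128 groups of 4 arrays, 7 held an array whose gap to the nearest of the others, over the whole range, exceeded Dixon's critical value of 0.829. Chance flags about 1 group in 20. After LPS, Ttn was highest in knockout array 2 at 13.83 (others 13.52 to 13.57), Myoz2 was highest in wild-type array 4 at 13.21 (others 12.94 to 12.95), and Synpo2l was highest in wild-type array 3 at 12.03 (others 10.29 to 10.38). After saline, Acta1 was lowest in wild-type array 3 at 12.26 (others 12.997 to 13.08), Tmod1 in wild-type array 3 at 11.03 (others 11.23 to 11.24), Ldb3 in wild-type array 2 at 11.96 (others 12.10 to 12.12), and Pdlim5 in knockout array 3 at 12.52 (others 12.58 to 12.59).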

How the results depend on the processing

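Lower members numbered 15 in wild-type hearts (13 to 19 when 1 array was left out, 10 to 21 under the other settings) and 14 in knockout hearts (13 to 16 and 12 to 20). Higher members in wild-type hearts numbered 0, with 0 to 1 when 1 array was left out, 2 with array weights, 1 with the mean of all probe sets, 1 with only the groups compared fitted, and 2 without wild-type LPS array 4 and knockout LPS array 2. Higher members in knockout hearts numbered 2, with 1 to 3 when 1 array was left out, 1 with no variance trend, 1 without wild-type saline arrays 1 and 4, and 3 with arrays centred on their median or with the mean of all probe sets, where Des was added. Between genotypes after saline, array weights called 1 member lower instead of 0. The other genotype counts and the interaction counts were 0 under all settings run, and no called change of a member reversed. Of the called members, 10 of 15 in wild-type and 13 of 16 in knockout hearts were called under every setting. The 5 lost somewhere in wild-type hearts were Myl2, Myl3, Myom1, Tpm1 and Ttn, and the 3 in knockout hearts were Myom2, Pdlim5 and Tpm1. The Myh7 to Myh6 shift ranged from -0.23 to 0.04 in wild-type and 0.29 to 0.66 in knockout hearts when 1 array was left out, and the Acta1 to Actc1 shift from -0.14 to 0.20 and 0.25 to 0.61. With the mean of all probe sets the Myh7 to Myh6 shift was 0.92 in knockout and -0.10 in wild-type arrays. Leaving out saline arrays 1 and 4 of the wild-type gave shifts there of -0.26 for Myh7 to Myh6 and 0.23 for Acta1 to Actc1. Same-numbered arrays of different groups deviated with correlations between -0.27 and 0.33, so the numbers were not taken as pairs. With the replicate number as a block, 14 members were lower and 0 higher in wild-type hearts (Ttn, -0.21, adjusted p = 0.0675, was the one lost), and 14 lower and 2 higher in knockout hearts. Causes of these shifts were not tested. Probe sets at the top of the scale and 4 arrays per group limit the precision.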
